A study of Mus musculus with 9 samples.

Results

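Liver messenger RNA of C57BL/6J mice given the plasticizer di(2-ethylhexyl) phthalate together with green tea polyphenols was compared with that of mice given water. The comparison took 6 of the 9 libraries of the series, 3 from each group, chosen by their labels alone. The group called DEHP_GTP received 1500 mg/kg of the phthalate each day in corn oil with 70 mg/kg of the polyphenols, and the group called Control received distilled water, both by gavage for 8 weeks. The other 3 libraries, called DEHP, received the same phthalate and oil without the polyphenols. They enter below as values set beside the comparison and through the shared estimate of spread. Corn oil reached both phthalate groups and not Control, and groups given the oil alone or the polyphenols alone were not analysed here, so phthalate, oil and polyphenols cannot be told apart in any difference from Control. The labels give neither age nor sex. Nothing in them ties a library to an animal of its own, and each p-value therefore reflects only how far these samples scatter.

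Phthalate monoesters, formed when esterases cut the parent compound, bind and activate the nuclear receptor PPARA. In rodent liver PPARA drives genes that carry fatty acids into peroxisomes and mitochondria and oxidize them there, with the Cyp4a omega-hydroxylases and the peroxisomal enzyme Ehhadh among its strongest targets. A related receptor, CAR, drives Cyp2b and other drug-metabolizing enzymes. Green tea polyphenols are plant catechins studied as antioxidants. The series title poses the question of whether they lessen the liver injury of the phthalate, and the present comparison asks which transcripts still stood apart from the water group when both were given.

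The deposited table held a single depth-scaled signal per gene symbol and library. Of 18148 symbols, 10388 reached a value of 1 in at least 3 of the 9 libraries and were tested as log2(value + 1). This scale makes the changes of weakly expressed genes look smaller than they are. Fold changes below are differences on that scale, DEHP_GTP minus Control, with their standard errors, and adjusted p-values are Benjamini-Hochberg values from limma over all 10388 genes. Genes with such a p below 0.05 are termed called. Library totals ran from 789076 to 863300, and the sources used here do not state how many reads lie behind them.

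The Control libraries differed among themselves in transcripts of fat tissue. The summed value of 7 fat cell markers was 826 and 1410 in Control replicates 1 and 2 and 11.9 in Control replicate 3. In DEHP_GTP libraries it was 22.4 to 53.8, most of it from Fabp4, at 20.3, 52.7 and 49.8 in replicate order. Fabp4 was at 470, 689 and 9.25 in Control. Of these markers Adipoq, Plin1 and Lep were listed at 0 in every DEHP_GTP library and in Control replicate 3. Brown fat markers summed to 289, 267 and 32.6 in Control and to 52.0 to 150 in DEHP_GTP libraries. Most of each DEHP_GTP sum came from Elovl3, which is also on the list of male-biased liver genes. Elovl3 was at 134, 38.8 and 42.6 in DEHP_GTP libraries and at 45.2, 37.5 and 24.5 in Control. Among the other brown fat markers Ucp1 was at 50.3, 36.2 and 0 in Control and Cox8b at 129, 127 and 0. Both were at 0 in every DEHP_GTP library. The part of brown fat transcripts in the results was not tested. Red blood cell markers summed to 3555, 3331 and 1568 in Control and to 1166 to 1914 in DEHP_GTP libraries, and their part in the results was not tested. Hepatocyte markers, among them Alb, summed to 96179 to 101049 in Control and to 75774 to 87831 in DEHP_GTP libraries, and none of the 7 was called. Because of the fat transcripts, several fold changes are also given against Control replicate 3 alone. The major urinary proteins, a family of secreted pheromone carriers encoded by the Mup genes, took 18.8% ± 2.36 of the library total in Control and 8.41% ± 2.79 in DEHP_GTP libraries (SD, n = 3).

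**Figure D1:**
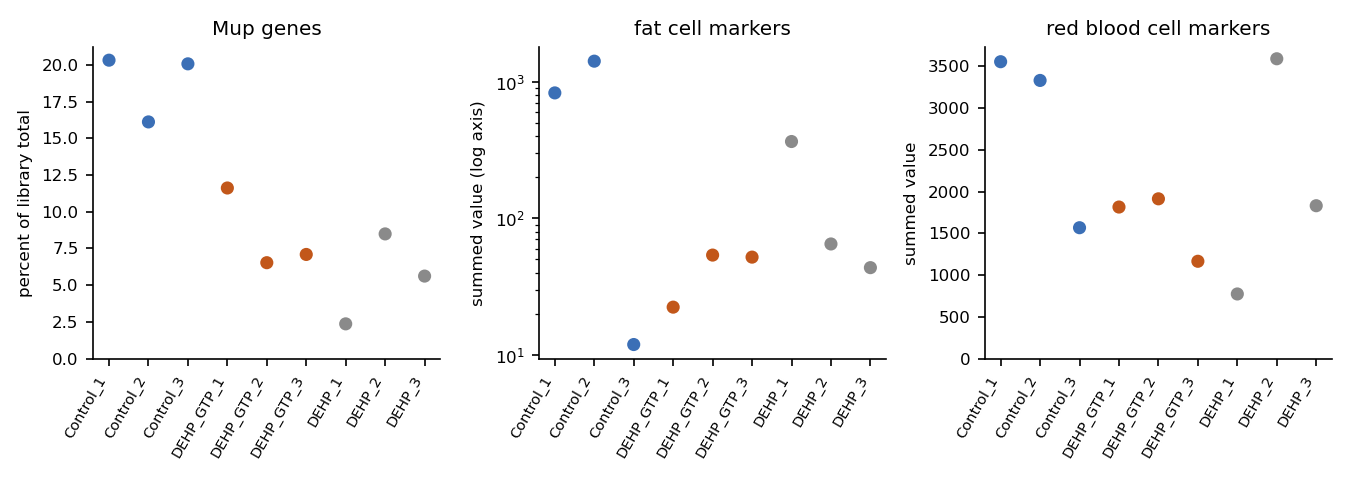
Share of the library total taken by the Mup genes (left), summed value of 7 fat cell markers on a log axis (middle) and summed value of 7 red blood cell markers (right) in each library, each point being 1 library. Control replicates 1 and 2 have the highest sums of fat cell markers, followed by DEHP replicate 1, where Fabp4 makes 362 of 364. The Mup share of every Control library is above that of every DEHP_GTP library.

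In DEHP_GTP against Control 1085 of the 10388 genes were called, which is 10.4% of those tested. Of these, 1006 (9.68%) were higher in DEHP_GTP and 79 (0.76%) were lower. In all 1085 called genes the DEHP_GTP and Control libraries did not overlap. Lack of overlap was common, and held for 3749 (36.1%) of the tested genes, called or not. Genes of fatty acid oxidation, drug-metabolizing enzymes and hepcidin 2 led the rises, and the secreted proteins vaspin (Serpina12) and adropin (Enho) were among the largest called falls. Most called changes were small. The median called rise was 0.42 and the median called fall -0.73 on the log2 scale, and 69 rises and 24 falls were at least 2-fold on that scale.

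The excess of rises has to be read beside a shift of the whole table. The median of all tested genes was 0.11 above Control, while the library totals of DEHP_GTP were the lowest of the series and the abundant Mup transcripts took less of them. After quantile normalization 172 genes (1.66%) were called higher and 110 (1.06%) lower. Centring each library on its median gene gave 180 higher and 96 lower. Equal totals without the Mup genes gave 298 higher and 65 lower, with a median of 0.04 over all genes. A core of 147 rises and 46 falls was called under all 4 other scalings of the libraries. Library choice mattered as well. The number called fell to 254 when DEHP_GTP replicate 2 was left out and to 382 when replicate 3 was. It was 279, 471 and 277 when Control replicates 1, 2 and 3 were left out in turn, and 1115 when DEHP_GTP replicate 1 was. Taking Control replicate 3 as the lone Control left 10 called genes, 7 higher and 3 lower.

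**Figure D2:**
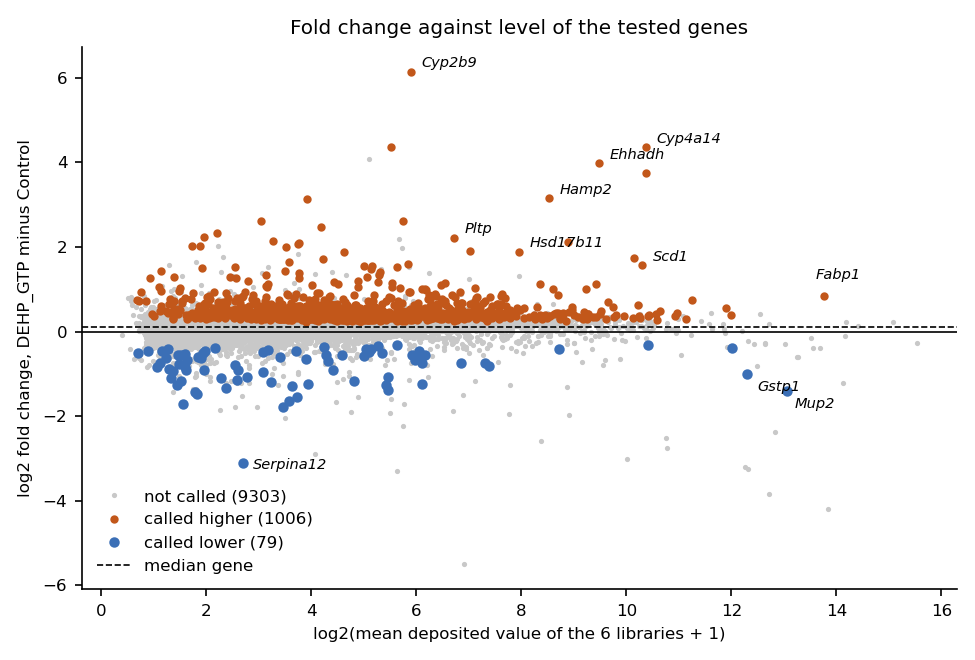
Log2 fold change of DEHP_GTP over Control (vertical axis) against the mean level of the 6 libraries on a log2 scale (horizontal axis), 1 point per tested gene, with genes called higher in orange, genes called lower in blue and the median gene as a dashed line. The 1006 called rises crowd just above the median gene, and a few genes such as Cyp2b9, Cyp4a14 and Ehhadh stand far above it.

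DEHP_GTP replicate 1 lay nearest to Control more often than the other DEHP_GTP libraries. It was the lowest of the 3 in 568 of the 1006 genes called higher, against 149 for replicate 2 and 289 for replicate 3. Among the 79 genes called lower it was the highest in 41, against 11 and 27. The same library held the largest Mup share of its group, 11.6% against 6.53% and 7.09%.

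Set against DEHP, the group that shares its phthalate and oil, DEHP_GTP had 0 of 10388 genes called (0%) by limma, with 1524 at an unadjusted p below 0.05 and none adjusted below 0.0761. The simpler limma fit, with neither trend nor robust estimates, called 0 as well. Equal library totals gave 5 calls, equal totals without the Mup genes 38, and leaving out DEHP_GTP replicate 3 or DEHP replicate 2 gave 7 and 86. On the first principal component, which held 55.2% of the variance, Control libraries lay between -27.0 and -25.8, DEHP_GTP libraries at -3.46, 13.9 and 6.39, and DEHP libraries between 13.02 and 28.6. Both comparisons share the DEHP_GTP libraries. DEHP values below are set beside the comparison, with the test of DEHP_GTP against DEHP where a gap is described.

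Omega-hydroxylation, the first oxidation of a fatty acid at its far end, held the largest rises of the fatty acid genes. Of 13 tested members of the list 8 were called higher and none lower, and the median of the list was 0.80 against 0.11 over all tested genes. Cyp4a14 stood at 109, 146 and 95.5 in the Control libraries and at 1727, 3743 and 2088 in the DEHP_GTP libraries, in replicate order. Every DEHP_GTP library was far above every Control library, with replicate 2 the highest. Cyp4a14 rose by 4.36 (SE 0.31, limma adjusted p = 0.00103) and by 4.63 against Control replicate 3 alone, and it was called in all 19 other settings tried. In DEHP libraries Cyp4a14 was at 5717, 3593 and 3679, and the difference of DEHP_GTP from DEHP, -0.83, did not pass (limma adjusted p = 0.28).

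Cyp4a10, another omega-hydroxylase, was at 147, 174 and 206 in Control and at 1842, 3591 and 1961 in DEHP_GTP libraries, a rise of 3.75 (SE 0.30, limma adjusted p = 0.00103). Cyp4a31 went from 1.64, 3.55 and 2.68 to 43.9, 164 and 50.9 and rose by 4.36 (SE 0.56, limma adjusted p = 0.0094). For both genes replicate 2 was the highest DEHP_GTP library and the groups were far apart. Cyp4a12b and, named outside the naming rule after its values were seen, Cyp4a12a are forms typical of male mouse liver. They rose by 1.90 (SE 0.22) and 1.13 (SE 0.14). The sources used here do not say how reads were split between the near-identical Cyp4a copies, so the values of single copies are uncertain. The list kept 7 to 9 called rises under the 4 other scalings and 7 to 8 with any library left out.

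Peroxisomal beta-oxidation, which shortens very long fatty acids, followed. Of 22 tested members 9 were called higher and none lower, with a median of 0.45. Ehhadh, the bifunctional hydratase and dehydrogenase of the pathway, stood at 78.6, 74.2 and 84.0 in Control and at 958, 2027 and 1039 in DEHP_GTP libraries. The Control libraries were close together and the lowest DEHP_GTP library was over 10 times the highest of them. Ehhadh rose by 3.99 (SE 0.37, limma adjusted p = 0.00233). In DEHP it was at 3996, 1916 and 1852, and the test of DEHP_GTP against DEHP gave a difference of -0.94 (limma adjusted p = 0.30).

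Members named in the same way, after their values were seen, were the thiolase Acaa1b, which rose by 1.73 (SE 0.26), and the carnitine octanoyltransferase Crot, which rose by 0.86 (SE 0.17). The called members of this list numbered 3 to 14 under the other scalings. With a library left out they numbered 4 (without Control replicate 3) to 12 (without DEHP_GTP replicate 1).

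Peroxins, which import proteins into peroxisomes and divide the organelle, were called in 2 of 19 tested, a share of 10.5% that is near the 10.4% of all genes. Pex7, the receptor for proteins with the second type of targeting signal, rose by 0.44 (SE 0.08, limma adjusted p = 0.0122). Pex11a, a division factor known as a PPARA target in rodents, was at 40.6, 42.6 and 36.4 in Control and at 42.7, 46.4 and 43.8 in DEHP_GTP libraries. The groups lay side by side without overlapping, and the difference of 0.15 (SE 0.12) did not pass (limma adjusted p = 0.44).

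Mitochondrial fatty acid oxidation held 14 called rises and no called fall among 24 tested members, with a median of 0.36. Eci1, an enoyl-CoA isomerase needed for unsaturated fatty acids, went from 145, 138 and 129 to 205, 315 and 252 and rose by 0.88 (SE 0.15, limma adjusted p = 0.0111). Acadm, the medium-chain acyl-CoA dehydrogenase, went from 161, 163 and 127 to 217, 262 and 231, a rise of 0.66 (SE 0.12, limma adjusted p = 0.0122). Acad10, a dehydrogenase of the same family, had Control libraries within a narrow band at 7.31, 7.27 and 7.51 and DEHP_GTP libraries at 13.03, 14.7 and 14.7. It rose by 0.85 (SE 0.08, limma adjusted p = 0.00103), among the smallest adjusted p-values of the table. Cpt1a, the gate for long-chain fatty acids into mitochondria, stood at 85.2, 91.1 and 83.3 against 80.3, 96.6 and 97.8. Its groups overlapped and its difference of 0.08 (SE 0.09) was below that of the median gene (limma adjusted p = 0.60).

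The mitochondrial count leaned on scaling and on single libraries. It was 3 after quantile normalization and 17 with equal library totals, 5 without Control replicate 3 or without DEHP_GTP replicate 2, and 16 without DEHP_GTP replicate 1. The median of the list stayed above that of all genes in each of these, at 0.20, 0.44, 0.33, 0.28 and 0.43.

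Ketone body genes, which turn the acetyl-CoA of fatty acid oxidation into exportable fuel, gave 3 called rises among 7 tested members, and 1 without Control replicate 2 or 3 or DEHP_GTP replicate 2 or 3. Fgf21, a fasting hormone and PPARA target, stayed between 0.35 and 1.01 in the 6 libraries and did not reach the filter.

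Fatty acid uptake, binding and activation held 8 called rises among 22 tested members and no called fall, with a median of 0.47. The rises numbered 3 without Control replicate 1 or 3 and 11 without DEHP_GTP replicate 1. Fabp1, the liver fatty acid binding protein, was at 10765, 8746 and 10449 in Control and at 15745, 22318 and 15966 in DEHP_GTP libraries. No library of either group came near the other group. Fabp1 rose by 0.84 (SE 0.16, limma adjusted p = 0.0135) and by 0.77 against Control replicate 3 alone. Cd36, a fatty acid importer that fat cells also express, was at 23.8, 32.0 and 9.72 in Control and at 55.7, 61.6 and 53.2 in DEHP_GTP libraries. Its difference of 1.49 (SE 0.41) missed the threshold (limma adjusted p = 0.0621), and was 2.43 against Control replicate 3 alone (limma adjusted p = 0.056).

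The promoter of Fabp1 is shown because it was the only one of 123 RefSeq promoters, from 101 of the 139 genes on the fatty acid lists above and below, to hold a strict direct repeat of the receptor half-site. PPARA binds such repeats, called DR1, with its partner RXR. The letters searched on both strands were the half-site AGGNCA, any base, and the half-site again, and 125 of 32851 RefSeq promoters of this length (0.381%) held them. Promoters of a single chromosome were left out of the search and of both counts. The window runs from 250 bases before to 50 bases after the start of Fabp1 in GRCm38.p6, on the plus strand of chromosome 6, from 71199629 to 71199928. Capitals mark the match, which begins 67 bases before the start and lies on the opposite strand.
Fabp1: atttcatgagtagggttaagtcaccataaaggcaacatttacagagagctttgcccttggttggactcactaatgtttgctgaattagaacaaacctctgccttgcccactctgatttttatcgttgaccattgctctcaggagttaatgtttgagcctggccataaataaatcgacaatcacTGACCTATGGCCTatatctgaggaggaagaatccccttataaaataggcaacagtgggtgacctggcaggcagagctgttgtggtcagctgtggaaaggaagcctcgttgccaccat
The match is a description of these letters, and its absence from the other windows says nothing of binding elsewhere. Promoters were at hand for 6 of the 10 genes with the largest rises and for 8 of the 10 with the largest falls, and none of these held the repeat.

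Vanins, which release vitamin B5 from pantetheine, and other genes of coenzyme A turnover gave 4 called rises among 12, and 1 with any 1 Control library left out or without DEHP_GTP replicate 2 or 3. Vnn1 went from 18.3, 17.2 and 15.8 to 39.0, 61.6 and 57.2 and rose by 1.54 (SE 0.34, limma adjusted p = 0.0338). Acyl-CoA thioesterases, which free fatty acids from coenzyme A, gave 2 called rises among 11, 18.2% against 10.4% of all tested genes. None was called without Control replicate 1 or 3 or DEHP_GTP replicate 2 or 3. Acot12 rose by 0.38 (SE 0.07, limma adjusted p = 0.0153). Acot1, the cytosolic form usually taken as a PPARA marker, was at 17.7, 23.1 and 22.01 in Control and at 42.8, 79.2 and 49.2 in DEHP_GTP libraries. The groups did not overlap, but the difference of 1.36 (SE 0.41) did not pass (limma adjusted p = 0.0759).

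**Figure D3:**
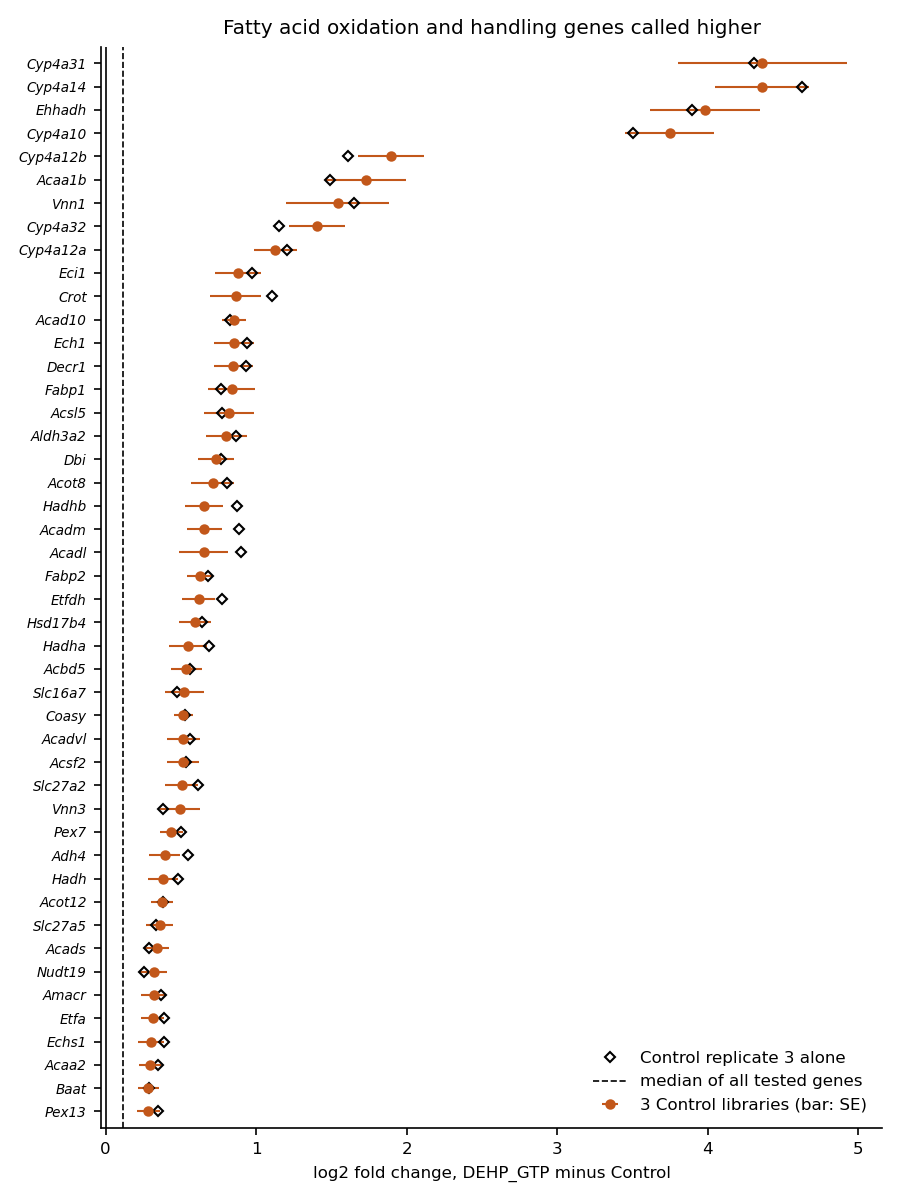
Log2 fold change of DEHP_GTP over Control for 46 of the 49 genes called higher among 139 genes of fatty acid oxidation and handling, sorted by size, with circles for the fit with 3 Control libraries (bars are standard errors) and open diamonds for Control replicate 3 alone. The diamonds lie near the circles for most genes, with Cyp4a31, Cyp4a14, Ehhadh and Cyp4a10 above 3 and most others below 1.

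Lipid storage genes moved in both directions. Mogat1, an acyltransferase that makes diacylglycerol, was at 1.59, 1.67 and 0.82 in Control and at 12.2, 15.3 and 12.03 in DEHP_GTP libraries, a narrow group far above Control. It rose by 2.60 (SE 0.20, limma adjusted p = 0.00103) and was called in all 19 other settings. Hsd17b11, a dehydrogenase of the lipid droplet surface, went from 104, 105 and 102 to 358, 504 and 320 and rose by 1.89 (SE 0.18, limma adjusted p = 0.00122). G0s2, the inhibitor of adipose triglyceride lipase, went from 54.0, 65.7 and 69.8 down to 24.01, 24.1 and 22.03, with the 3 DEHP_GTP libraries almost equal. It fell by 1.39 (SE 0.19, limma adjusted p = 0.00544), and by 1.54 against Control replicate 3 alone. G0s2 is also abundant in fat cells, and the part of fat transcripts in its fall was not tested.

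Over the whole lists, 2 of 20 tested droplet and lipolysis genes were called higher and 1 lower, in all 15.0% against 10.4% of all tested genes. Triglyceride synthesis gave 4 called rises among 15, and 1 after quantile normalization, with any 1 Control library left out or without DEHP_GTP replicate 2 or 3. Their medians of 0.07 and 0.11 did not stand above the 0.11 of all genes. Plin2, the coat protein of liver droplets, was at 104, 91.6 and 95.2 against 105, 123 and 119, a difference of 0.25 (SE 0.15) that did not pass (limma adjusted p = 0.30). Cidec, a droplet fusion protein of fat cells, was at 31.2 and 58.5 in Control replicates 1 and 2, at 1.53 in Control replicate 3 and at 1.48, 0.69 and 1.76 in DEHP_GTP libraries, so its difference of -2.90 became -0.16 against Control replicate 3 alone.

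Fatty acid synthesis gave 4 called rises and 1 called fall among 22. The rises numbered 1 with any 1 Control library left out or without DEHP_GTP replicate 2, and 7 without DEHP_GTP replicate 1. Scd1, the desaturase that makes oleate, was at 508, 528 and 915 in Control and at 1521, 2090.3 and 2004 in DEHP_GTP libraries. Control replicate 3 stood above the other Control libraries and still below every DEHP_GTP library. Scd1 rose by 1.56 (SE 0.23, limma adjusted p = 0.00915) and by 1.02 against Control replicate 3 alone. Pklr, liver pyruvate kinase, which feeds glucose carbon towards fat, went from 97.2, 81.8 and 107 to 42.1, 36.5 and 40.2. It fell by 1.24 (SE 0.15, limma adjusted p = 0.00292). Fasn and Srebf1, the synthase and its regulator, had overlapping groups and differences of -0.35 (SE 0.33) and -0.41 (SE 0.22) that did not pass (limma adjusted p = 0.54 and 0.25).

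Cholesterol synthesis gave 7 called rises among 25 tested members, with a median of 0.58. Acat2, which makes the first intermediate, was at 37.7, 38.6 and 38.0 in Control and at 50.2, 100.1 and 79.6 in DEHP_GTP libraries and rose by 0.93 (SE 0.23, limma adjusted p = 0.038). Sqle, which makes the epoxide of squalene, was at 24.4, 22.7 and 25.8 in Control and at 22.9, 38.9 and 41.9 in DEHP_GTP libraries. DEHP_GTP replicate 1 lay among the Control libraries while its companions lay far above, and the difference of 0.45 (SE 0.24) did not pass (limma adjusted p = 0.27). The number of called genes on this list was 18 without DEHP_GTP replicate 1, 0 without Control replicate 1 and 0 after quantile normalization.

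Bile acid genes gave 7 called rises among 23 and none after quantile normalization or without Control replicate 3. Cyp8b1, which directs synthesis to cholic acid, went from 85.8, 89.3 and 87.4 to 141, 276 and 147 and rose by 1.02 (SE 0.27, limma adjusted p = 0.0486). Cyp7a1, the rate-limiting enzyme, overlapped between the groups, with a difference of -0.53 (SE 0.35, limma adjusted p = 0.36). Nr0b2, the repressor SHP that lowers Cyp7a1, rose by 1.34 (SE 0.32, limma adjusted p = 0.0385).

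Among apolipoproteins and lipoprotein genes 3 of 25 were called higher and 1 lower, in all 16.0% against 10.4% of all tested genes. The rises numbered 1 without Control replicate 1 or 3 or DEHP_GTP replicate 2 or 3. Pltp, the phospholipid transfer protein of plasma, was at 37.9, 23.4 and 45.6 in Control and at 101, 188 and 232 in DEHP_GTP libraries. All DEHP_GTP libraries were above all Control libraries, and replicate 1 was the nearest to them. Pltp rose by 2.22 (SE 0.34, limma adjusted p = 0.0124). Apoa4, an apolipoprotein of triglyceride export, went from 61.7, 53.1 and 62.2 to 24.3, 18.7 and 30.1 and fell by 1.26 (SE 0.17, limma adjusted p = 0.00495).

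**Figure D4:**
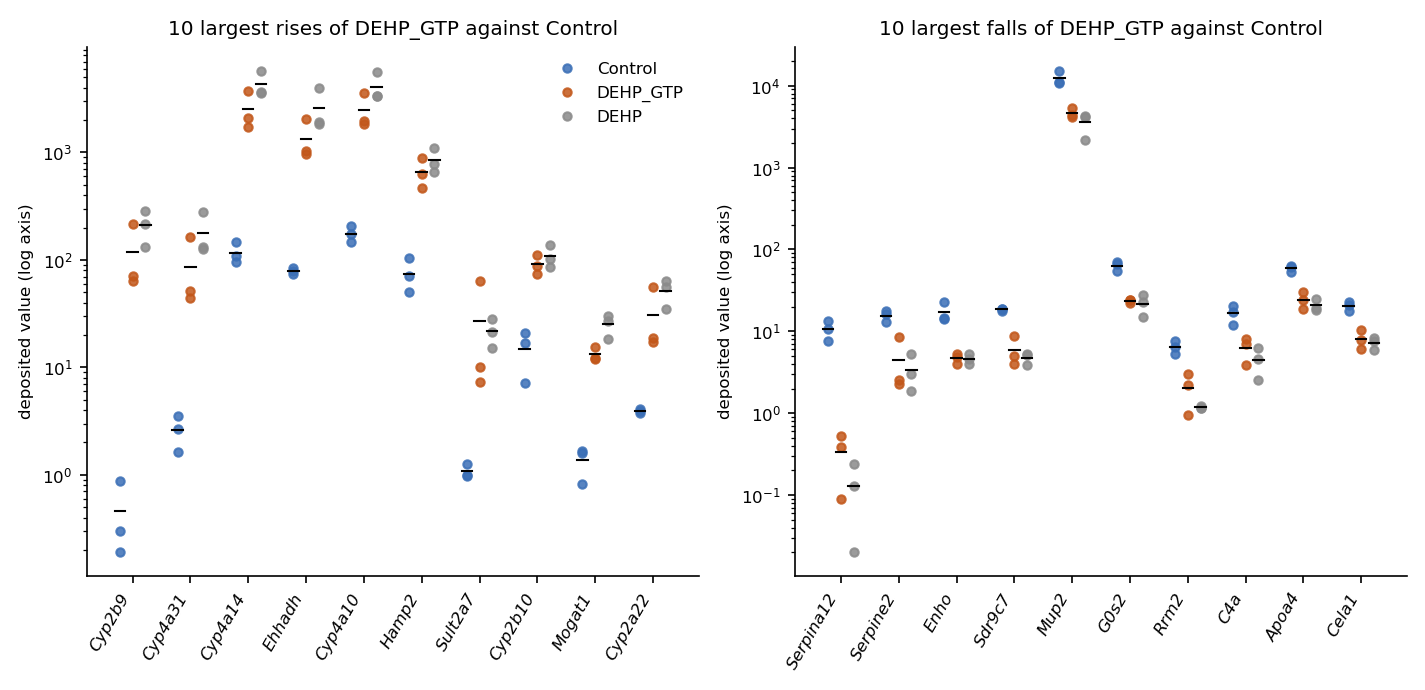
Deposited values on log axes of the 10 genes with the largest called rises (left) and the 10 with the largest called falls (right), with 3 points per group for Control, DEHP_GTP and DEHP and a bar at each group mean. Control and DEHP_GTP points do not overlap in any of these genes, which the choice of genes required, and DEHP_GTP replicate 2 is the highest of its group in Cyp2b9, Cyp4a31 and Sult2a7.

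Drug-metabolizing P450 enzymes held the largest called rise of the table. Cyp2b9, a monooxygenase typical of female mouse liver, was at 0.30, 0.88 and 0.19 in Control and at 64.1, 218 and 70.7 in DEHP_GTP libraries. It was close to absent in Control, and DEHP_GTP replicate 2 stood above its companions. Cyp2b9 rose by 6.14 (SE 0.51, limma adjusted p = 0.00233). Cyp2b10, the standard CAR target, went from 20.8, 16.7 and 7.19 to 110.3, 73.7 and 87.8 and rose by 2.62 (SE 0.37, limma adjusted p = 0.0101). It was called in all 19 other settings, with a rise of 3.46 against Control replicate 3 alone.

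In DEHP libraries Cyp2b9 was at 284, 133 and 216 and Cyp2b10 at 103, 85.3 and 138, and their DEHP_GTP values did not differ from these at the threshold (limma adjusted p = 0.43 and 0.80). Cyp3a11, the main PXR target, rose by 0.57 (SE 0.13, limma adjusted p = 0.0251). In all 5 of 19 tested Cyp2b, Cyp2c and Cyp3a genes were called higher and none lower, also 5 after quantile normalization. The receptors themselves, Nr1i3 (CAR), Nr1i2 (PXR) and Ppara, had differences of -0.11, 0.09 and 0.24 that did not pass (limma adjusted p = 0.35, 0.55 and 0.27).

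Cyp2b9 and Cyp2b10 lie on the plus strand of chromosome 7 in GRCm38.p6, and their promoters are shown because their transcripts rose together and share sequence. The windows, again 250 bases before to 50 after the start, run from 26173159 to 26173458 for Cyp2b9 and from 25897408 to 25897707 for Cyp2b10. Aligned end to end, 223 of 311 alignment columns (71.7%) were the same. Capitals mark bases not matched by the partner.
Cyp2b9: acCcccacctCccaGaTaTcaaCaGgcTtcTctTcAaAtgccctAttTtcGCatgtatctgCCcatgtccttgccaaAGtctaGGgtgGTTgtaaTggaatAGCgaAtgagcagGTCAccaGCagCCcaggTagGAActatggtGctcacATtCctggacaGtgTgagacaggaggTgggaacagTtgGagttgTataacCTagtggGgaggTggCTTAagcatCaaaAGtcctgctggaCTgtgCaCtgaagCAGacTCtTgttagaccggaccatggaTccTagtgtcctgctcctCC
Cyp2b10: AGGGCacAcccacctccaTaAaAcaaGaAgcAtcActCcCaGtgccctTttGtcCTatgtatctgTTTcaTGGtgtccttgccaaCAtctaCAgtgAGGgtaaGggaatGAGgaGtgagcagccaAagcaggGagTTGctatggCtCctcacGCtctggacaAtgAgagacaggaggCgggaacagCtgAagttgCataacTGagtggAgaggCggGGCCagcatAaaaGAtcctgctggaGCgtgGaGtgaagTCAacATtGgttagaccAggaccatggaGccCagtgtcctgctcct
The 2 windows differ throughout, and no position was tied to the size of the rise.

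Of the other P450 enzymes and reductases 4 of 28 were called higher and 1 lower, in all 17.9% against 10.4% of all tested genes. No rise was called with any 1 Control library left out, 1 was called after centring, and the fall was lost without Control replicate 3 or DEHP_GTP replicate 2. Cyp2a22 went from 3.96, 4.12 and 3.76 to 17.3, 55.6 and 18.6 and rose by 2.46 (SE 0.44, limma adjusted p = 0.0203). Near-identical Cyp2a copies make its value uncertain. Cyp2d40 went from 83.3, 84.6 and 88.3 to 57.7, 47.9 and 46.0 and fell by 0.75 (SE 0.14, limma adjusted p = 0.0143). Cyp1a2, Cyp2e1 and the P450 reductase Por had overlapping groups, with differences of -0.27, 0.17 and -0.02 (limma adjusted p = 0.27, 0.41 and 0.95).

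Glutathione S-transferases gave 9 called rises and 2 called falls among 21 tested, 5 and 1 after quantile normalization. The rises numbered 3 without Control replicate 1 or 2 or without DEHP_GTP replicate 2. Gsta1, which detoxifies lipid peroxidation products, was at 9.15, 9.21 and 9.97 in Control and at 39.98, 46.1 and 27.6 in DEHP_GTP libraries and rose by 1.87 (SE 0.34, limma adjusted p = 0.0205). Gstp1, an abundant form of male mouse liver, went from 6728, 5718 and 7849 to 2790, 3949 and 3337. Every DEHP_GTP library was below every Control library, and Gstp1 fell by 1.01 (SE 0.16, limma adjusted p = 0.00848).

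Glucuronidation genes gave 5 called rises among 17, and 1 without Control replicate 3. Ugt1a5 went from 17.3, 16.4 and 21.2 to 36.5, 52.6 and 49.9 and rose by 1.29 (SE 0.14, limma adjusted p = 0.00151). Ugt1a forms share their last exons, so their values are uncertain. Sult2a7, a sulfotransferase, was at 1.00, 1.25 and 0.98 in Control and at 7.27, 63.7 and 10.0 in DEHP_GTP libraries. DEHP_GTP replicate 2 stood far above its companions. Sult2a7 rose by 3.12 (SE 0.75, limma adjusted p = 0.0481), and it was called in 6 of the 19 other settings.

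Aldehyde dehydrogenases gave 10 called rises and no called fall among 20. Aldh3a2, which oxidizes fatty aldehydes, went from 103, 104 and 96.5 to 163, 210.5 and 161 and rose by 0.80 (SE 0.14, limma adjusted p = 0.0101). Aldh1a1, which makes retinoic acid, rose by 0.69 (SE 0.12, limma adjusted p = 0.0114). The count was 3 after quantile normalization and 3 without DEHP_GTP replicate 2. Carboxylesterases, the family that cuts phthalate diesters, gave no called rise and 2 called falls among 17, and no called fall with any 1 Control library left out or without DEHP_GTP replicate 2 or 3. Ces1b went from 54.1, 64.9 and 55.0 to 36.9, 23.7 and 22.5 and fell by 1.07 (SE 0.22, limma adjusted p = 0.0231). Flavin monooxygenases gave no call among 4 tested.

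Transporters gave 8 called rises and 1 called fall among 29. The rises numbered 2 after quantile normalization or centring, and 2 without Control replicate 2 or 3 or DEHP_GTP replicate 2. Slc22a7, the organic anion carrier Oat2, was at 12.2, 11.8 and 12.1 in Control and at 5.09, 4.87 and 4.24 in DEHP_GTP libraries. Both groups were tight and far apart, and Slc22a7 fell by 1.19 (SE 0.11, limma adjusted p = 0.00103). In DEHP it was at 2.06, 3.06 and 2.69, below every DEHP_GTP library. This gap of 0.68 was among those with the smallest adjusted p of that comparison (limma adjusted p = 0.0761), and did not pass. Abcc3, an exporter of conjugates back to blood, rose by 0.33 (SE 0.09, limma adjusted p = 0.0377). Slco1a1, a male-biased anion carrier, was at 80.4, 88.4 and 70.2 in Control and at 46.6, 10.6 and 26.0 in DEHP_GTP libraries, apart but too scattered to pass (limma adjusted p = 0.28).

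Of 23 peroxide and superoxide scavengers 9 were called higher and none lower, with a median of 0.24, and after quantile normalization none was called. Gpx4, which reduces lipid peroxides, went from 496, 499 and 484 to 602, 732 and 693 and rose by 0.45 (SE 0.09, limma adjusted p = 0.0149). Cat, the peroxisomal catalase, went from 1238, 1157 and 1177 to 1518, 1533 and 1571, with each group close together, and rose by 0.37 (SE 0.07, limma adjusted p = 0.0166). Sod1 and Gpx1 rose by 0.30 (SE 0.08) and 0.43 (SE 0.11). Without Control replicate 1 or Control replicate 3 no scavenger was called, nor after centring on the median gene.

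Targets of the antioxidant factor NRF2 gave 2 called rises among 24, a share below that of all genes. Osgin1, a growth inhibitor induced by oxidative stress, was at 49.9, 47.4 and 57.4 in Control and at 136, 93.7 and 66.1 in DEHP_GTP libraries and rose by 0.87 (SE 0.22, limma adjusted p = 0.0399). In DEHP libraries Osgin1 was at 39.1, 38.6 and 40.3, below every Control library. The test of DEHP_GTP against DEHP gave a difference of 1.24 that did not pass (limma adjusted p = 0.092). Nqo1, Gclc and Hmox1, the usual NRF2 markers, had differences of 0.59, 0.39 and 0.17 that did not pass (limma adjusted p = 0.13, 0.29 and 0.42).

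Of the chaperones of the endoplasmic reticulum none of 28 tested was called higher and 3 were called lower, 7 after quantile normalization, and the median was -0.09. Creld2, a chaperone induced by unfolded proteins, was at 37.5, 51.2 and 25.6 in Control and at 19.8, 14.6 and 13.3 in DEHP_GTP libraries. It fell by 1.17 (SE 0.24, limma adjusted p = 0.0235) and by 0.67 against Control replicate 3 alone (limma adjusted p = 0.16). Against that library alone the median of the list was 0.02 and that of all tested genes 0.17, where the fit reported gave -0.09 and 0.11. The sign of the list thus turned with the Control libraries used, while its median stayed below that of all genes. Without Control replicate 1, DEHP_GTP replicate 2 or DEHP_GTP replicate 3 no member was called lower. Hspa5, the main chaperone of the compartment, overlapped between groups, with a difference of -0.40 (SE 0.16, limma adjusted p = 0.13).

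Of the other stress lists, the integrated stress response had 2 of 14 tested genes called, 14.3% against 10.4% of all tested genes. The list of p53 targets and apoptosis had 1 of 21 called, a share of 4.76%. Trib3, a pseudokinase of the integrated stress response, went from 4.67, 2.42 and 2.63 to 7.70, 6.88 and 11.4 and rose by 1.20 (SE 0.24, limma adjusted p = 0.0207). Gdf15, a stress hormone, was at 2.31, 2.55 and 2.44 against 5.9, 3.01 and 6.2 and narrowly missed the threshold (difference 0.77, SE 0.22, limma adjusted p = 0.0531). Of the heat shock list 2 of 21 were called, both mitochondrial, a share of 9.52% that is near the 10.4% of all tested genes. None was called with any 1 Control library left out. Hspd1 rose by 0.51 (SE 0.11, limma adjusted p = 0.0257). Bbc3, the p53 target PUMA, rose by 0.78 (SE 0.14, limma adjusted p = 0.0127), while Cdkn1a, Bax and Mdm2 had differences of -0.32, 0.06 and 0.03 that did not pass (limma adjusted p = 0.81, 0.79 and 0.86). The cell cycle list gave 1 call among 20, 5.0% against 10.4% of all tested genes. Rrm2, a subunit of the enzyme that makes deoxynucleotides, went from 7.53, 5.22 and 6.39 to 2.20, 0.95 and 2.97 and fell by 1.33 (SE 0.23, limma adjusted p = 0.0127), and Mki67 stayed at 0.15 or less in the 6 libraries.

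Serpins, secreted protease inhibitors, held the largest called fall. Serpina12, the insulin-sensitizing hepatokine vaspin, was at 10.8, 7.67 and 13.4 in Control and at 0.39, 0.09 and 0.53 in DEHP_GTP libraries. It was nearly absent from every DEHP_GTP library. Serpina12 fell by 3.10 (SE 0.19, limma adjusted p = 0.000121), the smallest adjusted p of the table, and by 3.45 against Control replicate 3 alone, and it was called in all 19 other settings. In DEHP it was at 0.02, 0.24 and 0.13. Vaspin is also made by fat cells, and the part of fat transcripts in its fall was not tested.

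Serpine2, an inhibitor of thrombin, was at 16.3, 17.5 and 12.8 in Control and at 8.57, 2.30 and 2.51 in DEHP_GTP libraries, where replicate 1 stood above the others. Its fall of 1.77 (SE 0.45, limma adjusted p = 0.0492) was called in 3 of the 19 other settings. Of 19 tested serpins 5 were called lower and 1 higher. Serpinb1a, an inhibitor of neutrophil proteases, went from 2.21, 1.5 and 2.25 to 6.76, 11 and 5.52 and rose by 1.51 (SE 0.26, limma adjusted p = 0.0142). The falls numbered 2 to 5 under the other scalings, and 1 with any 1 Control library left out or without DEHP_GTP replicate 2. Values of the near-identical Serpina1 and Serpina3 copies are uncertain.

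Acute phase proteins gave 5 called rises and 1 called fall among 28, in all 21.4% against 10.4% of all tested genes. They gave no called rise with any 1 Control library left out. Orm3, an orosomucoid, was at 5.37, 3.03 and 3.36 in Control and at 22.4, 31.3 and 10.4 in DEHP_GTP libraries and rose by 2.09 (SE 0.40, limma adjusted p = 0.0231). Saa1 and Lcn2, which rise in inflammation, overlapped between the groups (differences 0.60 and 0.77, limma adjusted p = 0.56 and 0.60). Fga, a fibrinogen chain, went from 1034, 989 and 801 to 1620, 1330 and 1410 and rose by 0.63 (SE 0.14, limma adjusted p = 0.0236). Il1rn, the natural antagonist of interleukin-1, went from 0.76, 0.58 and 0.21 to 1.99, 3.30 and 2.82 and rose by 1.29 (SE 0.17, limma adjusted p = 0.00425). Tnf stayed at 0.14 or less in the 6 libraries, and Il1b and Tgfb1 had differences of -0.21 and 0.00 that did not pass.

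Of 34 tested complement genes 2 were called higher and 3 lower, against 9.68% and 0.76% of all tested genes. None was called after centring on the median gene, with equal totals without the Mup genes, or without Control replicate 1 or DEHP_GTP replicate 2 or 3. C3, the hub of all activation routes, went from 1270.1, 1366 and 1349 to 1796, 2027 and 1793 and rose by 0.49 (SE 0.12, limma adjusted p = 0.033). C9, the pore subunit of the terminal pathway, went from 202, 245 and 189 to 151, 104 and 105 and fell by 0.83 (SE 0.20, limma adjusted p = 0.0338). C4a, the sex-limited copy of C4, was at 17.3, 12.01 and 20.3 in Control and at 8.03, 7.02 and 3.92 in DEHP_GTP libraries and fell by 1.28 (SE 0.33, limma adjusted p = 0.0478). C4a shares most of its sequence with C4b, and its value is uncertain. C6 was at 98.7, 104 and 93.4 against 69.8, 29.4 and 47.3 and did not pass (limma adjusted p = 0.0791).

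Major urinary proteins are made in bulk by male mouse liver under pulses of growth hormone. Their list, with the related lipocalin Obp2a, had 22 tested members with a median of -1.43, and 1 of them, Mup2, was called lower. Mup2 was at 11010.2, 10936 and 15092 in Control and at 5296, 4409 and 4172 in DEHP_GTP libraries and fell by 1.41 (SE 0.26, limma adjusted p = 0.0169). No member was called after quantile normalization, or without Control replicate 1 or 3 or DEHP_GTP replicate 2 or 3, and 6 were called when only the 6 libraries were fitted. Mup20, the pheromone darcin, was at 12134, 9199 and 14146 against 7041, 6538 and 10046. Its groups overlapped, and the difference of -0.59 (SE 0.53) did not pass (limma adjusted p = 0.51). The medians of the list under the 4 other scalings lay between -1.55 and -1.35, and splitting of reads among near-identical copies leaves the value of each Mup gene uncertain.

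Other male-biased genes had a median of -0.69, with 4 called lower and 2 higher among 26. Of all tested genes 0.76% were called lower and 9.68% higher. Hsd3b5, a steroid dehydrogenase of male liver, was at 95.1, 79.7 and 63.8 in Control and at 46.3, 1.63 and 3.34 in DEHP_GTP libraries. Selenbp2, a selenium-binding protein, was at 577, 567 and 477 in Control and at 237, 36.9 and 77.8 in DEHP_GTP libraries. In both genes DEHP_GTP replicate 1 held far more than its companions and still less than any Control library. With that spread neither difference passed, at -3.29 (SE 1.29, limma adjusted p = 0.15) and -2.60 (SE 0.97, limma adjusted p = 0.14).

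Female-biased genes had a median of 0.84, with 4 called higher and none lower among 15. They included Cyp2b9, given above, and Slc22a27, an anion carrier that was at 0.41, 0.50 and 0.24 in Control and at 1.19, 2.82 and 1.75 in DEHP_GTP libraries and rose by 1.04 (SE 0.27, limma adjusted p = 0.0429). Sult2a1 was listed at 0 in all 6 libraries, and Cux2, a transcription factor of female liver, stayed below 1. Without DEHP_GTP replicate 1 the female-biased list gave 6 called rises and the male-biased list 6 called falls. Without Control replicate 1 or 3 they gave 1 each.

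In the growth hormone axis 1 of 18 tested genes was called higher and 1 lower, in all 11.1% against 10.4% of all tested genes. Igf1, its main effector in liver, went from 73.5, 75.3 and 79.6 to 57.6, 50.6 and 55.9. The groups were tight and apart, and Igf1 fell by 0.47 (SE 0.08, limma adjusted p = 0.00935). Igfbp2, which binds it in plasma, went from 349, 401 and 429.9 to 691, 1096 and 639 and rose by 1.00 (SE 0.19, limma adjusted p = 0.0151). From the male-biased list Egfr, a receptor that growth hormone maintains in male liver, went from 71.7, 73.4 and 84.2 to 57.7, 43.0 and 42.6 and fell by 0.68 (SE 0.18, limma adjusted p = 0.0444), a call kept in 1 of the 4 other scalings and lost with any 1 Control library left out. Socs2, which limits the hormone's signal, overlapped between the groups (limma adjusted p = 0.79).

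Of 18 secreted hepatokines 3 were called lower and 1 higher. Enho, which encodes the hormone adropin, was at 14.1, 22.7 and 14.7 in Control and at 5.33, 4.81 and 4.01 in DEHP_GTP libraries. The DEHP_GTP libraries lay close together below the lowest Control library, and Enho fell by 1.64 (SE 0.17, limma adjusted p = 0.00151). It was called in all 19 other settings, and in DEHP it was at 4.65, 4.04 and 5.27. Angptl4, a PPARA target that inhibits lipoprotein lipase, overlapped between the groups with a difference of -0.46 (SE 0.21, limma adjusted p = 0.19).

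Iron genes held the sixth largest called rise. Hamp2, a copy of the hepcidin gene with little known effect on iron in mice, was at 70.2, 50.03 and 103 in Control and at 465, 896 and 628 in DEHP_GTP libraries. It rose by 3.15 (SE 0.33, limma adjusted p = 0.00385), and by 2.62 against Control replicate 3 alone. Hamp, which encodes the iron hormone hepcidin, was at 7936, 8469 and 11044 in Control and at 7205, 7668 and 7436 in DEHP_GTP libraries. All DEHP_GTP values of Hamp lay below Control, and the difference of -0.28 (SE 0.14) did not pass (limma adjusted p = 0.21). In all 3 of 21 iron genes were called higher, against 9.68% of all tested genes, and 1 without Control replicate 3 or DEHP_GTP replicate 2.

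The promoters of this pair are shown because the copies gave such different results from closely similar sequence. Both lie on the minus strand of chromosome 7 in GRCm38.p6, Hamp from 30943980 to 30944279 and Hamp2 from 30924132 to 30924431. Aligned end to end, 276 of 303 columns (91.1%) were the same. Capitals mark bases not matched by the partner.
Hamp: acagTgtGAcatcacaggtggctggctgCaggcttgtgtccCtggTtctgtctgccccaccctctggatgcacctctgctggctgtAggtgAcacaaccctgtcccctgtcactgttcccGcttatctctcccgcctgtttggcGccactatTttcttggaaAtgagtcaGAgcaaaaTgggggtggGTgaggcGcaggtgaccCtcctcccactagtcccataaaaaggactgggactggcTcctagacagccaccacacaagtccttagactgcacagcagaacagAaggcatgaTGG
Hamp2: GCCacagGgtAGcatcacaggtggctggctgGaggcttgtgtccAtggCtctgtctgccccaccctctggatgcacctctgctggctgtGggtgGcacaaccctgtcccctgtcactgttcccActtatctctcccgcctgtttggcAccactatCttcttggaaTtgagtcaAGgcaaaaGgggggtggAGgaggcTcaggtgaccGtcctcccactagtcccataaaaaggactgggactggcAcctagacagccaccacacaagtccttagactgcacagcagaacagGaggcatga
None of the marked bases was tied to the rise of Hamp2, and the split of reads between the copies is uncertain.

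Zinc and clock genes each held 1 large rise. Slc39a5, a zinc importer, went from 0.29, 0.35 and 0.19 to 3.25, 9.14 and 3.99 and rose by 2.23 (SE 0.41, limma adjusted p = 0.0205), while Mt1 and Mt2, the metallothioneins, scattered widely in both groups (limma adjusted p = 0.75 and 0.80). Nr1d1, the clock repressor REV-ERB alpha, went from 17.4, 15.8 and 13.1 to 47.6, 44.7 and 48.5 and rose by 1.55 (SE 0.19, limma adjusted p = 0.00425). It was the only core clock gene called among 17 by this fit. Arntl, Per3 and Dbp overlapped between the groups (limma adjusted p = 0.83, 0.30 and 0.54), and no clock output gene of 17 was called. Both counts stand beside 10.4% of all tested genes, a share that puts few calls on lists of this size.

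Central metabolism gave scattered calls. Of 30 genes of glucose use and production 4 were called higher and 1, Pklr, lower, against 9.68% and 0.76% of all tested genes. No rise was called after quantile normalization or centring, or without Control replicate 1 or 3 or DEHP_GTP replicate 2 or 3. Ppargc1a, a coactivator of fasting metabolism, went from 1.58, 1.46 and 0.92 to 2.21, 3.81 and 4.15 and rose by 0.90 (SE 0.20, limma adjusted p = 0.0268). G6pc, the last enzyme of glucose release, was at 109, 172 and 239 in Control and at 39.7, 49.6 and 97.2 in DEHP_GTP libraries. The groups did not overlap, and the difference of -1.50 (SE 0.42) missed the threshold (limma adjusted p = 0.0645). Tkfc, a kinase of fructose breakdown, went from 183, 193 and 217 to 115, 116 and 120.2 and fell by 0.75 (SE 0.10, limma adjusted p = 0.00385).

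Urea cycle and amino acid genes gave 8 called rises among 42, and none after quantile normalization or with any 1 Control library left out. Hal, which starts histidine breakdown, rose by 0.67 (SE 0.17, limma adjusted p = 0.0368), and Cps1, the entry enzyme of the urea cycle, had a difference of 0.25 (SE 0.13) that did not pass (limma adjusted p = 0.25). In the tryptophan to NAD pathway 3 of 17 were called higher and 1 lower, against 9.68% and 0.76% of all tested genes. With any 1 Control library left out no rise was called there. Kynu rose by 0.51 (SE 0.12, limma adjusted p = 0.0293). Nmrk1, a nicotinamide riboside kinase, fell by 0.69 (SE 0.15, limma adjusted p = 0.0213). In heme metabolism Hmox2 rose by 0.36 (SE 0.08, limma adjusted p = 0.0279), and Alas1, the rate-limiting synthase, overlapped between the groups (limma adjusted p = 0.91). Among nuclear receptors and coactivators 4 of 28 were called higher, against 9.68% of all tested genes, and none with any 1 Control library left out.

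Lists of large protein machines gave small called rises and no called fall. Of 48 subunits of oxidative phosphorylation 17 were called higher and none lower, with a median of 0.29, and 47 lay above the median gene. Mitochondrial ribosomal proteins gave 11 called rises among 40 (median 0.24), proteasome subunits 11 among 37 (median 0.27) and cytosolic ribosomal proteins 5 among 50 (median 0.20). The last is 10.0% of its list, near the 9.68% of all tested genes. Cox7b, a subunit of cytochrome oxidase, went from 180, 164 and 175 to 218, 246 and 236 and rose by 0.43 (SE 0.08, limma adjusted p = 0.0127). Mrpl16 went from 23.8, 21.5 and 21.9 to 30.4, 30.8 and 30.9 and rose by 0.44 (SE 0.07, limma adjusted p = 0.00686).

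After quantile normalization no member of these 4 lists was called, and their medians were 0.10, 0.08, 0.07 and 0.02. With equal library totals 41 of the 48 oxidative phosphorylation subunits were called higher, and without DEHP_GTP replicate 2 or Control replicate 3 only 1 was. Psma5, a core proteasome subunit, rose by 0.45 (SE 0.12, limma adjusted p = 0.0386), and Rpl22 by 0.32 (SE 0.07, limma adjusted p = 0.0283).

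**Figure D5:**
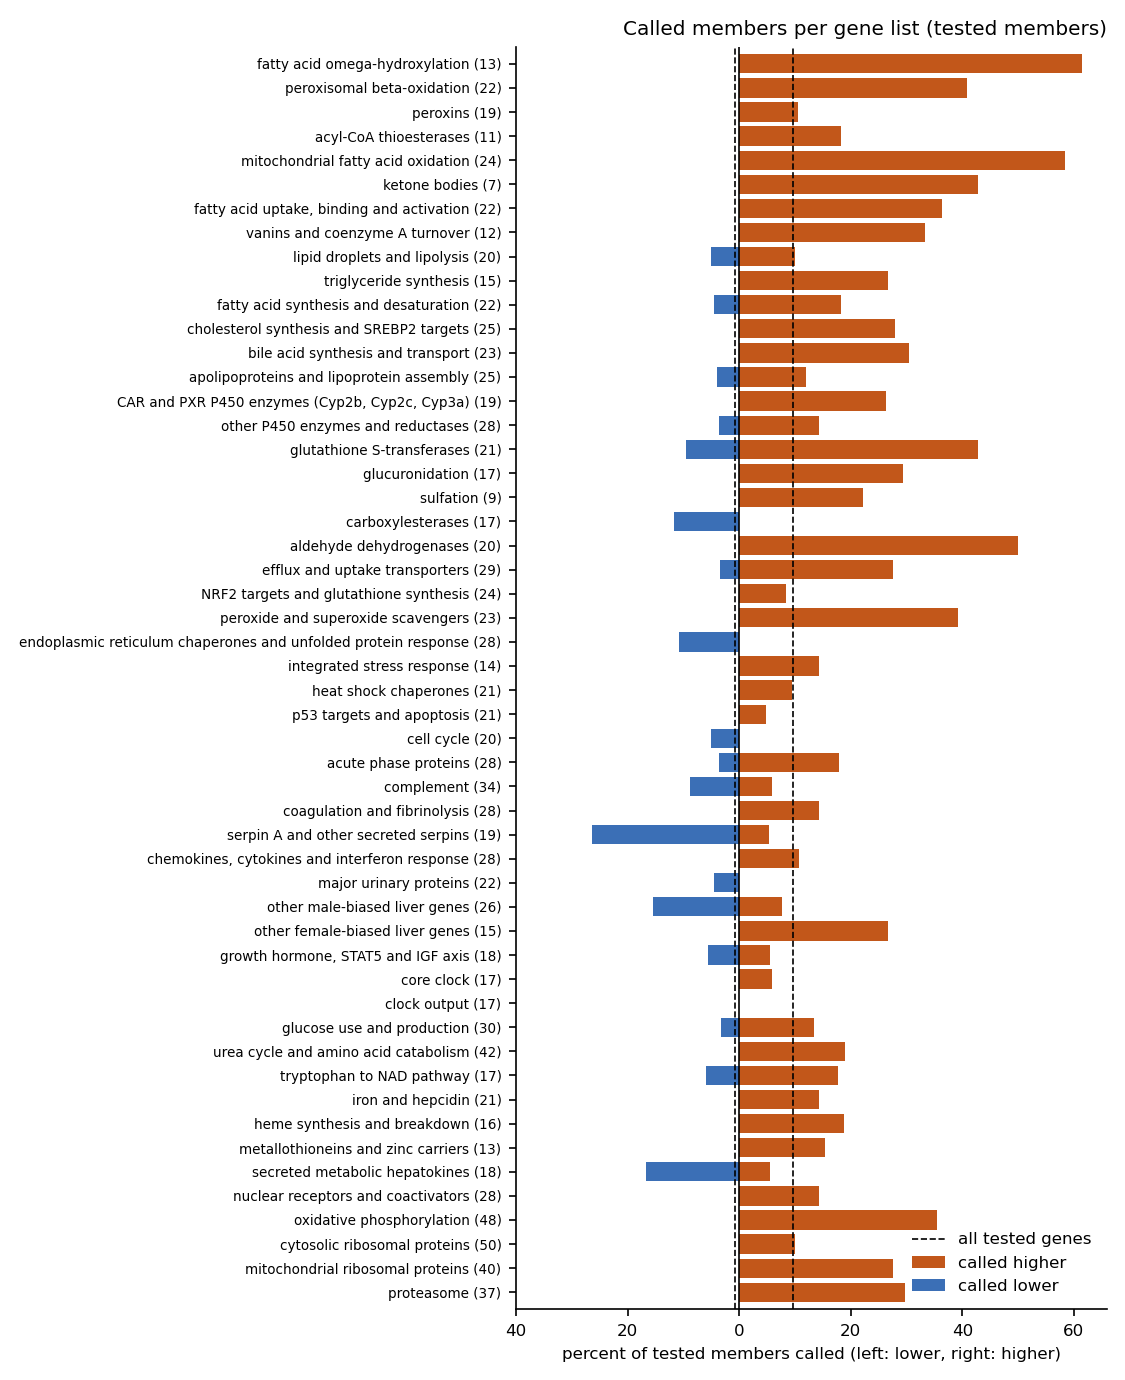
Percent of the tested members of each gene list that were called higher (orange, to the right) or lower (blue, to the left) in DEHP_GTP against Control, with the number of tested members in brackets and dashed lines at the 9.68% and 0.76% of all tested genes. Omega-hydroxylation and mitochondrial fatty acid oxidation reach farthest right, and serpins, hepatokines and male-biased genes reach far left.

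Markers of other liver cell types gave 1 call. Nkg7, a granule protein of natural killer and T cells, was at 0.77, 1.02 and 0.91 in Control and at 0.44, 0.23 and 0.33 in DEHP_GTP libraries and fell by 0.51 (SE 0.12, limma adjusted p = 0.0322). Its values were near the lowest that were tested. In such bulk tissue fewer cells of a type and less RNA per cell cannot be told apart. Kupffer cell markers summed to 49.8 to 58.0 in Control and to 64.1, 101 and 56.4 in DEHP_GTP libraries, and none of the 6 was called. Cholangiocyte, endothelial, stellate, B cell and neutrophil markers gave no call.

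Some of the clearest changes lay outside these lists. Adam11, a membrane protein of the disintegrin family, was at 2.87, 2.20 and 2.68 in Control and at 12, 16.7 and 15.7 in DEHP_GTP libraries and rose by 2.13 (SE 0.18, limma adjusted p = 0.00103). Krt23, a keratin, went from 0.37, 0.34 and 0.89 to 6.27, 8.64 and 5.29 and rose by 2.33 (SE 0.21, limma adjusted p = 0.00103). Ddah1, which breaks down inhibitors of nitric oxide synthase, went from 32.9, 30.2 and 30.9 to 50.1, 53.1 and 53.6. Each group of Ddah1 spanned a narrow range, and it rose by 0.72 (SE 0.07, limma adjusted p = 0.00103).

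Among the falls, Sdr9c7, a dehydrogenase of the retinoid family, went from 18.95, 17.9 and 18.7 to 8.82, 4.04 and 5.04 and fell by 1.54 (SE 0.22, limma adjusted p = 0.00677). Cela1, an elastase, went from 22.5, 20.9 and 17.5 to 10.3, 6.06 and 7.86 and fell by 1.25 (SE 0.17, limma adjusted p = 0.00544). In both genes the groups did not overlap, as in every called gene, and DEHP_GTP replicate 1 was the nearest to Control. Aatk, a kinase, went from 2.71, 2.80 and 1.73 to 0.55, 0.58 and 0.58 and fell by 1.10 (SE 0.14, limma adjusted p = 0.00309).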

How the data were processed

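Poly(A)-selected liver RNA was sequenced, per the labels' protocols. The submitters' processing notes name CASAVA 1.7, limma and the mouse build mm9 but give no roles; for the aligner, counter and annotation nothing is stated in the sources used here. Each gene symbol has 1 deposited signal per library, never negative, scaled by the authors for depth and, from its values, of the FPKM or TPM kind. It has 18148 symbols, of which 18095 (99.7%) matched RefSeq names. Of 1149 low values 28.9% lay within 0.1 of a whole multiple of their gene's lowest value above 0, against about 20% for an even spread. This does not settle whether low values move in whole reads. Depth is unknown, and no counting interval is given.

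Genes reaching 1 in 3 or more libraries were tested (10388 genes). One limma model (3.58.1, R 4.3.3, trend and robust) on log2(value + 1), with a pseudocount of 1, was fitted to all 9 libraries, and each contrast was adjusted by Benjamini-Hochberg. Exact permutation of 3 against 3 cannot go below p = 0.1 and was not used. The code was tested on simulated data. The alternatives were quantile normalization, equal library totals, centring on the median gene, equal totals without the Mup genes, no filter, a pseudocount of 0.1, limma without trend and robust estimates, only the 6 libraries compared, a replicate block, leaving out each library, and Control replicate 3 as the lone Control.

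The text names the 10 largest called rises and falls (groups not overlapping, higher mean at least 5, no provisional symbols), the largest called rise and fall of each list, key genes of the lists called or not, and the 6 smallest adjusted p-values in each direction. The members and lists were chosen with earlier results of these data known. The 65 lists hold 1271 genes, 1145 of them tested. Lists are described by counts and medians, with no set test. Each count has to be read beside the 9.68% called higher and 0.76% called lower among all tested genes. Promoter sequences are from RefSeq, GRCm38.p6; since the authors' build is mm9, no coordinate was joined to the expression table. Nothing in the labels says that replicate numbers pair the libraries. Same-numbered Control and DEHP_GTP libraries correlated at 0.17, -0.02 and 0.06 in their deviations from the group means. For DEHP and DEHP_GTP libraries the values were -0.26, -0.22 and -0.04. So few libraries cannot exclude a pairing, and a fit with a replicate block is given among the alternatives. Some genes of the lists are counted in the totals but not reported here by name.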

Additional observations from a re-analysis of the deposited data

How the results depend on the processing

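Against 1085 genes called in DEHP_GTP against Control, 282 were called after quantile normalization, 276 after centring on the median gene, 363 with equal totals without the Mup genes and 582 with no filter on low values, while equal library totals gave 2019. A pseudocount of 0.1 gave 1101, limma without trend and robust estimates 909 and only the 6 libraries compared 1037. Fitted with a replicate block, in case the numbers pair the libraries, 578 were called and 0 in DEHP_GTP against DEHP. Leaving out a library gave 254 to 1184 calls, and Control replicate 3 as the lone Control gave 10; a lone Control is assumed to vary like the other groups. The cause of each of these moves was not tested, beyond the smaller number of samples where libraries were left out. In DEHP_GTP against DEHP, against 0 in the fit reported, 5 genes were called with equal library totals, 38 with equal totals without the Mup genes, 1 with no filter and 1 with only the 6 libraries compared, and 0 to 86 with a library left out, 86 being without DEHP replicate 2. No named gene that was called changed its direction under any of the 19 alternatives. Called in all of them were 5 rises and 3 falls, and in all but the lone Control 116 and 22. Depth limits cannot be given, because the sources used here do not state the number of reads.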
